A study of Mus musculus with 7 samples.

Results

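Expression of 10 genes of fatty acid synthesis, elongation and desaturation was examined in single mouse embryos exposed to maternal diabetes. The genes are Acly, Acaca, Fasn, Elovl6, Elovl5, Scd1, Scd2, Fads1, Fads2 and Srebf1, and they are 10 of the 12394 genes that the array annotation names on probe sets assigned to a single gene. All 20 probe sets annotated to them were taken whatever their values. Each probe set is a group of oligonucleotides on the array that reports on one stretch of a transcript, so a gene can have several.

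The 7 samples were whole embryos of the inbred FVB mouse strain at embryonic day 10.5 (E10.5), with 1 Affymetrix Mouse 430A 2.0 array per embryo. The exposed group held 2 embryos with a neural tube defect (NTD) and 3 embryos without NTD, all from a dam made diabetic with streptozotocin, a toxin of the insulin-producing beta cells. The 2 control embryos came from an untreated dam. Since each group came from 1 pregnancy, maternal diabetes and litter cannot be told apart, and the p-values below measure only the spread between littermates. Sex of the embryos was not labelled, but Y-linked transcripts were present in both controls and in exposed embryo NTD 2, and Xist was high in the other 4 exposed embryos.

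Fatty acid synthesis starts from citrate, which Acly splits into the acetyl-CoA that Acaca turns into malonyl-CoA and Fasn assembles into palmitate. Elovl6 lengthens palmitate, and the stearoyl-CoA desaturases Scd1 and Scd2 introduce the first double bond, giving the monounsaturated acids of membranes and storage lipids. Fads1, Fads2 and Elovl5 act on polyunsaturated acids. Scd2 is the form of stearoyl-CoA desaturase prevalent in the brain and in the embryo, whereas Scd1 prevails in the adult liver and fat. The transcription factor SREBP-1, encoded by Srebf1, activates most of these genes once it has been cut free from its membrane anchor.

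Values are MAS5 signals, linear fluorescence values that were scaled per array, with medians between 206 and 218 on all 7 arrays. A probe set's signal can be compared between embryos but not with that of another probe set. A probe set was tested if its signal reached the 40th percentile of the array in at least 2 of the 7 arrays, which 14554 probe sets did. Exposed embryo no NTD 1 stood apart by transcripts of yolk sac endoderm and liver. The summed signal of 13 measured genes of a list of 14 such markers was 29169 there and between 1471 and 3663 in the other 6 embryos. Exposed embryo NTD 1 stood apart by the array's control probe sets for 18S ribosomal RNA, at 6236 for the 3′ set against 123 to 432 in the other 6 embryos. Results are therefore also given without these embryos where that changed them.

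Of the 20 probe sets, 18 passed the filter, and 0 of the 18 differed between exposed and control embryos at a Benjamini-Hochberg adjusted p under 0.05 (limma), the criterion for a call. Calls were rare on the whole array, at 0.172% of the tested probe sets. At an unadjusted p under 0.05, 3 of the 18 were lower in exposed embryos (2 of Scd2 and 1 of Fads2), where the share over all tested probe sets was 8.52%, and 1 of Scd1 was higher, where that share was 7.63%. In 4 of the 18 all exposed embryos lay below both controls, and in 1 all lay above both. Over all tested probe sets these shares were 13.4% and 11.4%. The median log2 fold change of the 18 was -0.0067, against 0.00033 over all tested probe sets, and 9 of the 18 were above 0 and 9 below. The larger differences were those of single probe sets of Scd2, Fads2 and Scd1.

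Scd2, the desaturase of the embryo and the brain, gave the largest difference among the 18. Its probe set 1415824_at had signals of 1056 and 454 in exposed embryos with NTD, 285, 430.5 and 471 in exposed embryos without NTD, and 1397 and 1452 in controls. All 5 exposed embryos were below both controls, and 4 of them lay close together, with exposed embryo NTD 1 between those 4 and the controls. The mean was 539 ± 298 in exposed embryos (SD, n = 5) and 1425 ± 39.0 in controls (SD, n = 2), so that exposed embryos had 37.9% of the control signal. The log2 fold change was -1.55 (SE 0.37, limma unadjusted p = 0.0016, adjusted p = 0.102; exact permutation p = 0.0476, two-sided, the smallest that 5 against 2 embryos can give). Exposed embryo NTD 2, which carried Y-linked transcripts like the controls, was at 454, and the bearing of sex on these values was not tested.

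The call for this probe set turned on the embryos included and on the test. With all 7 embryos it passed the criterion with array quality weights (limma adjusted p = 0.0386) and in the regularized test of the methods (Cyber-T, adjusted p = 0.000358). Both settings also called many more probe sets on the whole array, 491 with array weights against 25, and more still with Cyber-T. These passes are thus not particular to Scd2. In the methods' other test, neither this probe set nor any other on the array passed the criterion. Without exposed embryo NTD 1, the embryo with high 18S signal, the log2 fold change was -1.82 (limma adjusted p = 0.0172), and without both embryos that stood apart it was -1.66 (limma adjusted p = 0.0059), which passes the criterion. Exposed embryo NTD 1 had the exposed value nearest the controls, so leaving it out must widen the difference. Calls on the whole array also rose without it, from 25 to 58. The 2 embryos that stood apart were chosen after the values were seen. Leaving out exposed embryo no NTD 1 alone gave -1.35. Over all alternatives tried the log2 fold change lay between -1.88 and -1.35, always lower in exposed embryos, with adjusted p between 0.000358 and 0.540. This is the Scd2 probe set in the study's own list of changed genes, so it is not an independent choice. The methods' criteria were retraced in part, as a mean more than 2-fold lower with an unadjusted p under 0.05 in each of their tests, leaving out their false discovery step and detection calls. It was the only 1 of the 18 to pass, where 0.708% of all tested probe sets did.

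**Figure D1:**
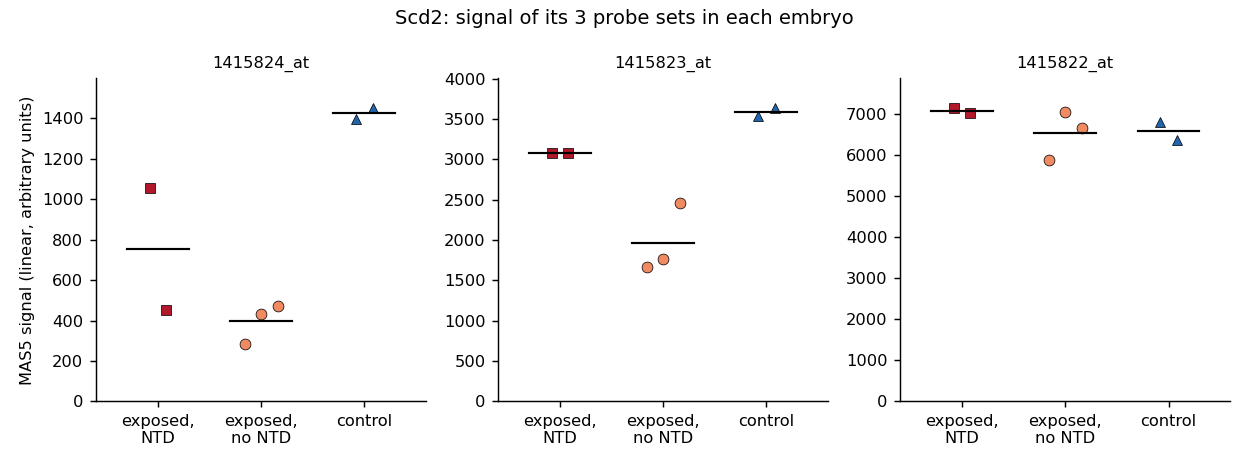
Signal (linear, arbitrary units, axis from 0) of the 3 Scd2 probe sets in each embryo, 1 point per embryo, with a bar at the mean of exposed embryos with NTD (n = 2), exposed embryos without NTD (n = 3) and controls (n = 2). All exposed embryos lie below both controls for 1415824_at and 1415823_at, and the groups overlap for 1415822_at.

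The second probe set, 1415823_at, moved in the same direction by less. It read 3082 and 3078 in exposed embryos with NTD, 1668, 1765 and 2455 in exposed embryos without NTD, and 3537 and 3640.1 in controls. The 3 groups did not overlap, and the embryos with NTD were the nearer to the controls. The exposed mean was 67.2% of the control mean, with a log2 fold change of -0.62 (SE 0.24, limma unadjusted p = 0.0246, adjusted p = 0.240; exact permutation p = 0.0952).

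The third probe set, 1415822_at, did not show this difference. Its signals were 7144 and 7007 in exposed embryos with NTD, 5877, 7052 and 6656 in exposed embryos without NTD, and 6803 and 6361 in controls, so that the groups overlapped. The log2 fold change was 0.03 (SE 0.11, limma adjusted p = 0.910). All 3 probe sets are annotated to Scd2 through the same transcript record, and their positions along the transcript were not analysed here.

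Since the 3 probe sets are read on the same array, their log2 difference within an embryo is free of the scaling of the array. The signal of 1415824_at minus that of 1415822_at was -2.76 and -3.95 in exposed embryos with NTD, -4.37, -4.03 and -3.82 in exposed embryos without NTD, and -2.28 and -2.13 in controls (log2). The shift of exposed against control embryos was -1.58 (exact permutation p = 0.0476, two-sided, and 0.190 after adjustment over the 10 pairs of tested probe sets that share a gene). Without exposed embryo NTD 1 it was -1.83, and leaving out any 1 embryo gave between -1.83 and -1.43. The shift between 1415823_at and 1415822_at was -0.66 (exact permutation p = 0.0952, adjusted 0.190). Differences over 1 on the log2 scale between probe sets of one gene were seen in 1 of the 10 pairs here, that of 1415824_at and 1415822_at, and in 3.93% of 7156 such pairs on the array. Whether Scd2 mRNA as a whole, some of its forms or only the stretch under 1 probe set was lower was not tested.

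**Figure D2:**
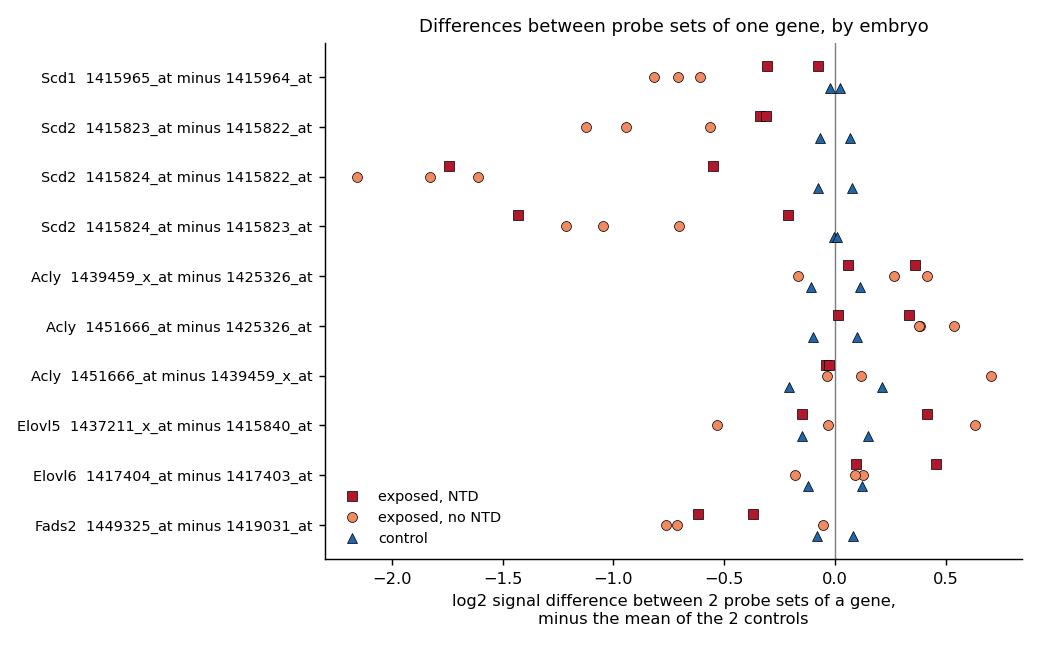
Log2 signal difference between 2 probe sets of the same gene within each embryo, minus the mean of the 2 controls (x axis, log2), for the 10 pairs of tested probe sets that share a gene. Points are single embryos; for the pairs with Scd2 1415824_at, and for that of 1415823_at and 1415822_at, all exposed embryos lie below both controls.

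Measures of RNA and of tissue makeup were set beside Scd2. The ratio of the 3′ to the 5′ control probe set, which rises where cDNA is less complete towards the 5′ end, was close in all embryos for the cytoskeletal actin Actb, at 1.07 to 1.17 in exposed embryos and 1.05 to 1.12 in controls. For Gapdh it was 0.822 to 0.915 in exposed embryos and 0.788 to 0.854 in controls. For the transferrin receptor Tfrc it was 2.94 to 4.24 in exposed embryos and 2.57 to 2.98 in controls. Tfrc is itself among the study's changed genes, and the paper traced its disagreement with quantitative PCR to alternative splicing. The summed signal of 8 neural marker genes was 7607 to 9196 in exposed embryos and 10696 to 10720 in controls, with the embryos with NTD at 9196 and 8466. For 4 of the 8 the probe set of highest signal was lower in all exposed embryos than in both controls (13.4% of all tested probe sets). For 0 of the 8 it was higher in all exposed embryos (11.4% of all tested probe sets). On those of Sox2, Nes, Pax6 and Tubb3 the groups overlapped. Probe sets of 2 of the 8 were called lower, Dcx 1418141_at (log2 fold change -1.61, limma adjusted p = 0.0157) and Map2 1421328_at (-1.60, limma adjusted p = 0.0279), both genes of neuronal microtubules. Another Dcx probe set, 1418140_at, had a log2 fold change of 0.02 with overlapping groups (limma adjusted p = 0.974). Summed signals of 7 erythroid markers were 64506 to 83780 in exposed embryos and 52083 to 54392 in controls, and 6 of the 7 were higher in all exposed embryos than in both controls. Those of 7 cardiac markers were 10066 to 11795 in exposed embryos and 9175 to 9504 in controls, with 2 of the 7 higher in all exposed embryos, where 11.4% of all tested probe sets were. Those of 4 measured adipocyte markers, of a list of 6, were 253 to 404 in exposed embryos and 277 to 315 in controls. Most of each sum was Retn, the only 1 of the 4 to pass the filter. Tissue share was not measured, and in whole embryos fewer cells of a type and less RNA per cell cannot be told apart. The part of these measures in the Scd2 values was not tested.

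Scd1, the paralog of Scd2, was measured by 2 probe sets, and only 1 of them separated exposed from control embryos. In the RefSeq annotation of assembly GRCm38.p6 the Scd1 and Scd2 genes share a chromosome, with Scd4 the only protein-coding gene between them, and cross-hybridisation between the paralogs cannot be assessed from these values. Probe set 1415964_at had 817 and 911 in exposed embryos with NTD, 1018, 923 and 887 in exposed embryos without NTD, and 672 and 670.0 in controls. All exposed embryos were above both controls, at 136% of the control mean, with a log2 fold change of 0.44 (SE 0.13, limma unadjusted p = 0.0055, adjusted p = 0.147; exact permutation p = 0.0476). Its sign held under every alternative tried, at 0.40 to 0.49.

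The other Scd1 probe set, 1415965_at, had lower signals, of 180.1 and 171 in exposed embryos with NTD, 145, 141 and 117 in exposed embryos without NTD, and 154 and 158 in controls. Exposed embryos with NTD were above both controls and those without NTD below both, and the log2 fold change over all exposed embryos was -0.07 (SE 0.23, limma adjusted p = 0.917). The shift between the 2 Scd1 probe sets was -0.50 (exact permutation p = 0.0952, adjusted 0.190).

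None of the 5 tested probe sets of the enzymes up to palmitate passed the test, and their log2 fold changes lay between -0.41 and 0.09. Fasn (1423828_at), the synthase itself, had 2110.2 and 1831 in exposed embryos with NTD, 1614, 2134 and 1881 in exposed embryos without NTD, and 2211 and 2112 in controls. The control values lay at the upper end of the exposed range, with a log2 fold change of -0.18 (SE 0.13, limma adjusted p = 0.528). Acaca (1427595_at), the carboxylase that commits acetyl-CoA to fatty acids, had 216 and 164 in exposed embryos with NTD, 114, 204 and 129 in exposed embryos without NTD, and 215 and 212 in controls. The highest exposed value was level with the controls and the others were lower, and the log2 fold change of -0.41 (SE 0.27) had a limma adjusted p of 0.478.

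Acly, the citrate lyase, had 5 probe sets, of which 3 were tested. The brightest, 1451666_at, had 3256 and 3300.1 in exposed embryos with NTD, 3632, 3380.2 and 4401 in exposed embryos without NTD, and 3145 and 3592 in controls, with a log2 fold change of 0.09. Probe set 1439459_x_at, whose suffix marks possible cross-hybridisation, had 2369.8 and 2375 in exposed embryos with NTD, 2364, 2449.8 and 1912 in exposed embryos without NTD, and 2570.4 and 2194 in controls, with a log2 fold change of -0.06. In both the groups overlapped. Probe set 1425326_at was the exception, at 1217 and 988 in exposed embryos with NTD, 1051, 982 and 1147 in exposed embryos without NTD, and 1271 and 1266 in controls. Here all exposed embryos lay below both controls, but the log2 fold change of -0.24 (SE 0.13) had a limma unadjusted p of 0.0891 and an adjusted p of 0.381. The remaining Acly probe sets, 1439445_x_at and 1438389_x_at, stayed between 4.01 and 37.8 in all 7 embryos and were not tested.

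**Figure D3:**
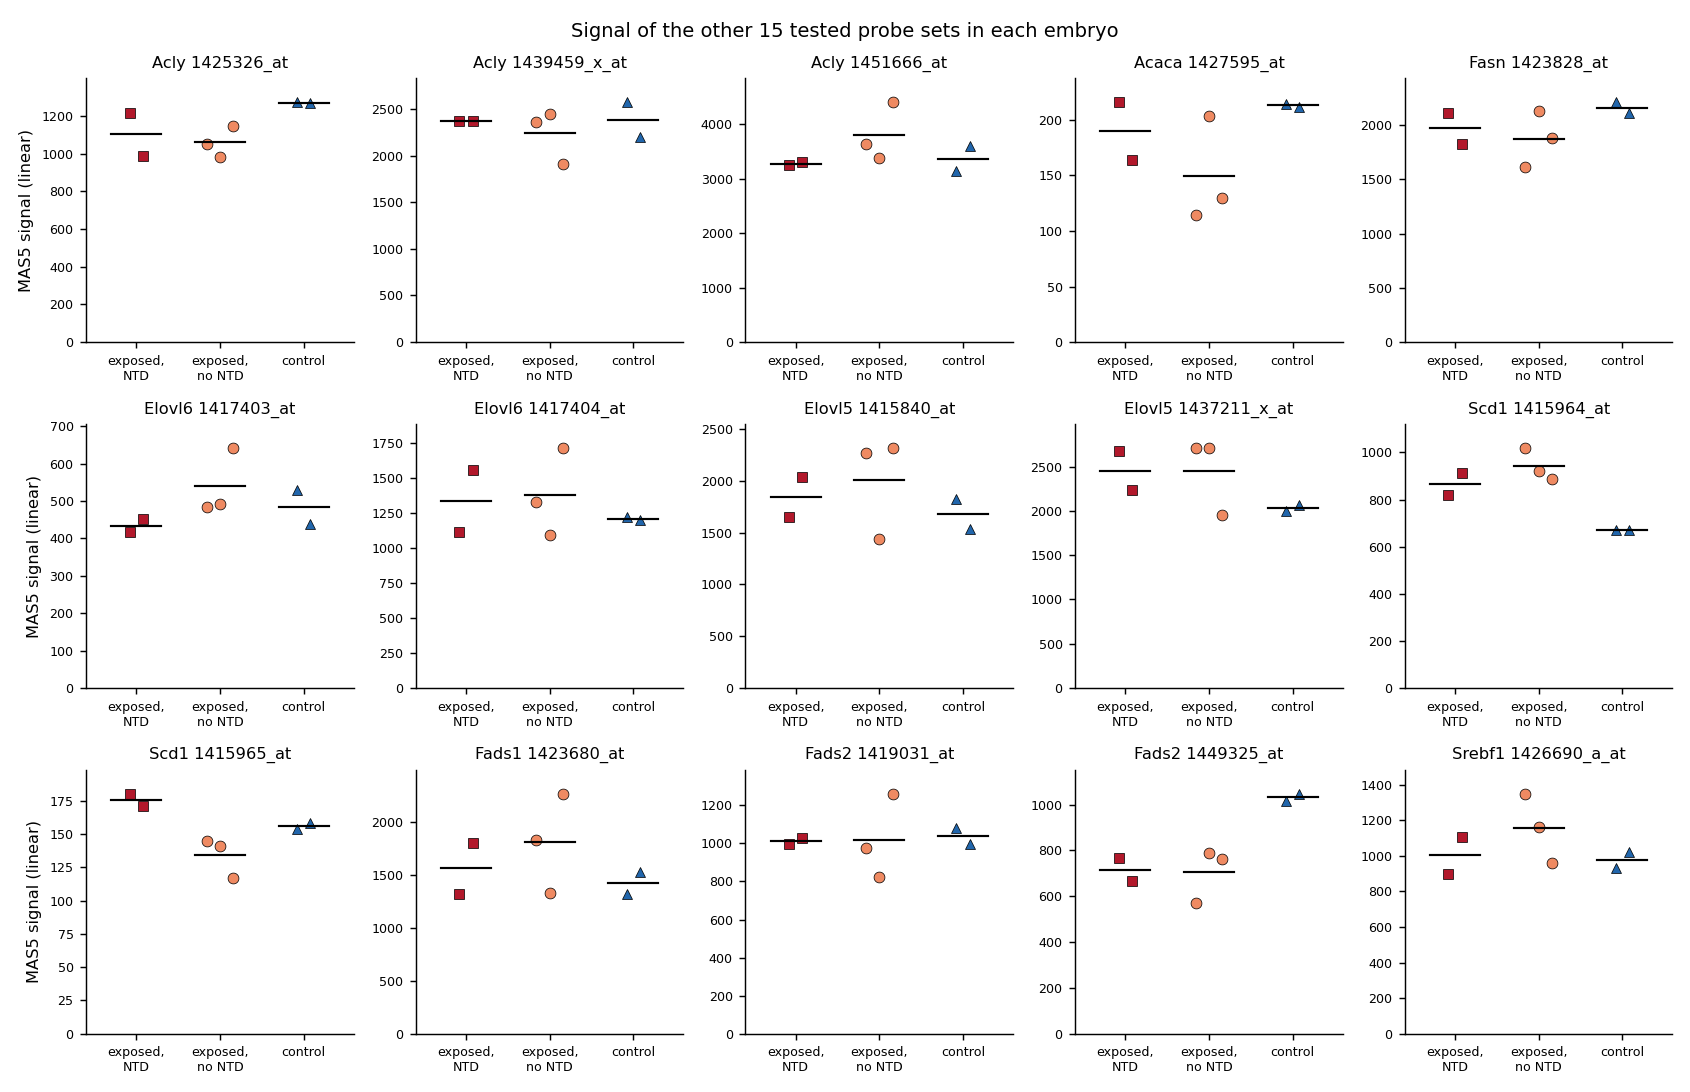
Signal (linear, axes from 0) of the 15 tested probe sets of the genes other than Scd2 in each embryo, with a bar at the mean of exposed embryos with NTD (n = 2), exposed embryos without NTD (n = 3) and controls (n = 2). The exposed embryos lie on one side of both controls for Scd1 1415964_at (above) and for Fads2 1449325_at and Acly 1425326_at (below).

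The elongases showed values of exposed embryos around or above those of controls, none past the criterion. Elovl6, which lengthens palmitate to stearate, had 417 and 452 in exposed embryos with NTD, 485, 492 and 642 in exposed embryos without NTD, and 529.7 and 438 in controls on 1417403_at. On 1417404_at it had 1114 and 1551 in exposed embryos with NTD, 1325, 1088 and 1709.6 in exposed embryos without NTD, and 1219.8 and 1195 in controls. The log2 fold changes were 0.03 and 0.15, with limma adjusted p of 0.952 and 0.726. Exposed embryo no NTD 3 was the highest of the 7 on both.

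Elovl5, an elongase of polyunsaturated acids, had 1649 and 2038 in exposed embryos with NTD, 2272, 1437 and 2316 in exposed embryos without NTD, and 1822 and 1532 in controls on 1415840_at. On 1437211_x_at it had 2676 and 2237 in exposed embryos with NTD, 2706, 2708 and 1952 in exposed embryos without NTD, and 2001 and 2072 in controls. The groups overlapped on both, and the log2 fold changes were 0.19 (SE 0.19, limma adjusted p = 0.656) and 0.26 (SE 0.15, limma adjusted p = 0.413).

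Fads2 encodes the delta-6 desaturase, which acts on linoleic and alpha-linolenic acid, and Fads1 the delta-5 desaturase, which acts later in the same pathway. No other protein-coding gene lies between Fads1 and Fads2 in the same annotation. Fads2 had a probe set, 1449325_at, with 766 and 667 in exposed embryos with NTD, 569, 788 and 763 in exposed embryos without NTD, and 1017 and 1046 in controls. All 5 exposed embryos were below both controls, and embryos with and without NTD were mixed. The exposed mean was 711 ± 91.7 (SD, n = 5) and the control mean 1031 ± 20.3 (SD, n = 2), or 68.9% of the control signal. The log2 fold change was -0.55 (SE 0.15, limma unadjusted p = 0.0042, adjusted p = 0.133; exact permutation p = 0.0476), and it stayed between -0.59 and -0.47 under all alternatives, with adjusted p from 0.0074 to 0.616.

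The second Fads2 probe set, 1419031_at, had 998 and 1029 in exposed embryos with NTD, 973, 823 and 1259 in exposed embryos without NTD, and 1082 and 996 in controls, with overlapping groups and a log2 fold change of -0.04 (SE 0.16, limma adjusted p = 0.918). The shift between the 2 Fads2 probe sets was -0.50 and did not pass the test (exact permutation p = 0.143, adjusted 0.238). Fads1 (1423680_at) had 1323 and 1799.9 in exposed embryos with NTD, 1832, 1327 and 2261 in exposed embryos without NTD, and 1315 and 1523 in controls. The exposed values spread across and above the control values, with a log2 fold change of 0.24 (SE 0.20, limma adjusted p = 0.592).

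The regulator Srebf1 did not pass the test. Its only probe set, 1426690_a_at, which reports on several transcript forms of the gene, had 901 and 1109 in exposed embryos with NTD, 1348, 1165 and 959 in exposed embryos without NTD, and 934 and 1022 in controls. The exposed embryos lay on both sides of the controls, and the log2 fold change was 0.15 (SE 0.16, limma adjusted p = 0.680).

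**Figure D4:**
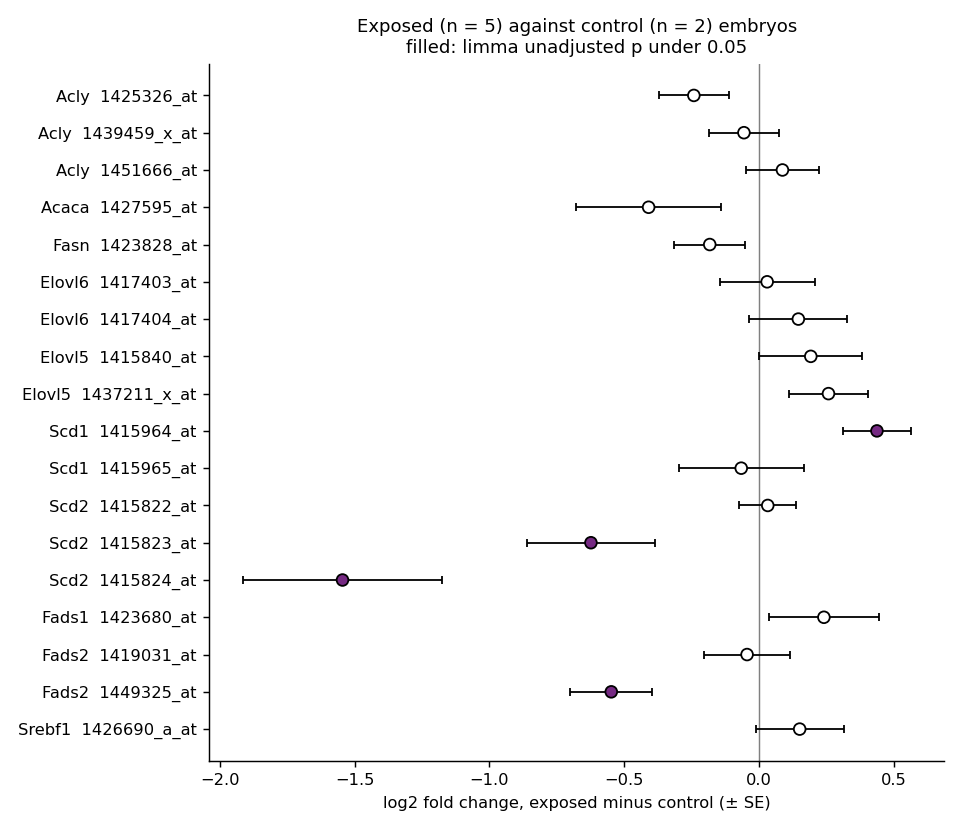
Log2 fold change of exposed (n = 5) minus control (n = 2) embryos for the 18 tested probe sets, in the order of the pathway, with bars of 1 standard error from limma. The 4 filled points have an unadjusted p under 0.05, and Scd2 1415824_at at -1.55 is the farthest from 0.

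Within the exposed litter, embryos with NTD were set against those without in a model of all 3 groups. None of the 18 probe sets was called, nor was any on the array (0% of the tested probe sets; 440 of them had an unadjusted p under 0.05). At an unadjusted p under 0.05, 2 of the 18 were higher in embryos with NTD, where 1.64% of all tested probe sets were, and 0 were lower. On the whole array 239 of the 440 were higher in embryos with NTD and the rest lower. Both of the 18 that were higher were of Scd2. For 1415823_at the log2 fold change of NTD against no NTD was 0.67 (SE 0.17, limma unadjusted p = 0.0028, adjusted p = 0.999; exact permutation p = 0.20, where 2 against 3 embryos cannot go below 0.1). For 1415824_at it was 0.84 (SE 0.33, limma unadjusted p = 0.0285, adjusted p = 0.999), but without exposed embryo NTD 1 it was 0.23, and without both embryos that stood apart 0.01. The difference for 1415824_at thus rested on 1 embryo. For 1415823_at it was 0.56 without both, a comparison that also rests on 1 embryo with NTD. For Scd1 1415965_at the embryos with NTD were above all those without NTD, with a log2 fold change of 0.39 (SE 0.24, limma unadjusted p = 0.127).

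SREBP-1 is released by a set of proteins in the endoplasmic reticulum and Golgi, which were examined beside its targets. Scap carries it to the Golgi, the Insig proteins retain it, and the protease of site 1, Mbtps1, makes the initial cut. Of 6 genes (Mbtps1, Mbtps2, Scap, Insig1, Insig2 and Srebf2), 4 were tested through 8 probe sets, of which 0 were called. Mbtps2 and Insig1 were not analysed here. Mbtps1 had a probe set, 1431385_a_at, with 259.7 and 133 in exposed embryos with NTD, 61.4, 179 and 85.3 in exposed embryos without NTD, and 415 and 327 in controls. All exposed embryos were below both controls, with a log2 fold change of -1.54 (SE 0.46, limma unadjusted p = 0.0070, adjusted p = 0.159). This probe set, too, is in the study's own list of changed genes.

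The other Mbtps1 probe sets did not show this. Probe set 1448240_at had 1940.0 and 1625 in exposed embryos with NTD, 1849, 1853 and 1676 in exposed embryos without NTD, and 2075 and 1882 in controls (log2 fold change -0.15, limma adjusted p = 0.575). Probe set 1431386_s_at, whose suffix marks probes shared between transcripts, had 28.6 and 184 in exposed embryos with NTD, 218, 176 and 187 in exposed embryos without NTD, and 151 and 153 in controls (log2 fold change -0.22, limma adjusted p = 0.905). For Scap (1433520_at) the log2 fold change was -0.07, for the 2 probe sets of Srebf2, the factor of the cholesterol pathway, -0.03 and 0.05, and for the tested probe sets of Insig2 -0.08 and -0.28, with limma adjusted p between 0.434 and 0.958.

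Around these genes, 119 tested probe sets of 77 genes in 6 lists of lipid metabolism held 0 calls, where 0.172% of all tested probe sets were called. At an unadjusted p under 0.05, 7 of the 119 were higher (5.88%) and 9 lower (7.56%), against 7.63% and 8.52% of all tested probe sets. The lists for further fatty acid synthesis and elongation (31 probe sets), cholesterol synthesis and uptake (30), fatty acid oxidation (24), fatty acid uptake and binding (13), glycerolipid synthesis (13) and SREBP processing (8) had median log2 fold changes of 0.01, -0.01, -0.02, 0.11, 0.08 and -0.12. The cholesterol pathway, the other branch under SREBP control, had 1 probe set of 30 higher and 1 lower at an unadjusted p under 0.05. These were Dhcr7 (1448619_at, 0.30) and Hmgcs1 (1433446_at, -0.32). On Hmgcs1 1433446_at the groups overlapped. The other tested Hmgcs1 probe sets, 1433443_a_at, 1433444_at and 1433445_x_at, had -0.02, -0.20 and -0.32 (limma adjusted p = 0.950, 0.703 and 0.403). The Tm7sf2 probe set 1460684_at had 0.26 with an unadjusted p of 0.075 (limma).

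**Figure D5:**
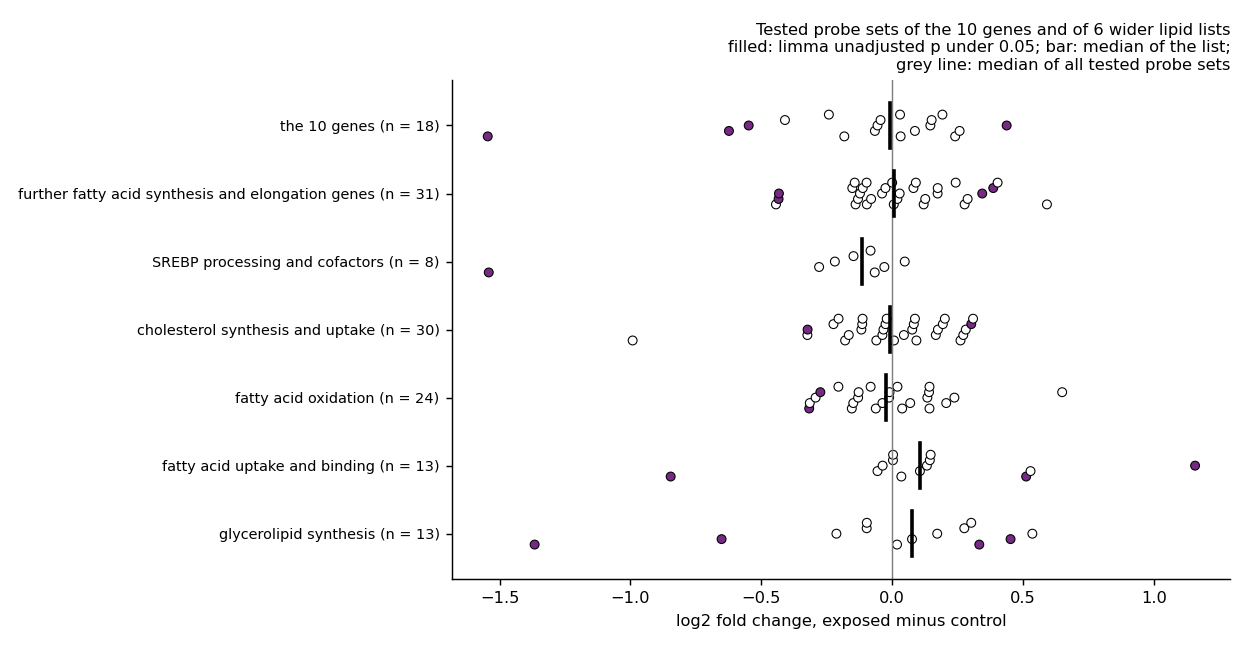
Log2 fold change of exposed minus control embryos for the tested probe sets of the 10 genes and of the 6 wider lipid lists, 1 point per probe set, filled where the limma unadjusted p is under 0.05. Black bars mark the median of each list, which lies between -0.12 and 0.11, and the grey line the median of all tested probe sets.

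The smallest adjusted p in these lists was that of Fabp7 (1450779_at), the fatty acid binding protein of neural progenitors and radial glia. It had 1845 and 1439.6 in exposed embryos with NTD, 1080.2, 1332 and 1275 in exposed embryos without NTD, and 2451 and 2483 in controls. All exposed embryos were below both controls, and those with NTD were above those without. The log2 fold change of NTD against no NTD was 0.41 and was not called (limma unadjusted p = 0.0258, adjusted p = 0.999). Embryos with NTD were above those without also for Scd2 1415823_at and, among others, Elovl2 1416444_at. For exposed against control embryos the Fabp7 log2 fold change was -0.85 (SE 0.18, limma adjusted p = 0.0786), and it passed the criterion without exposed embryo NTD 1 (-0.95, limma adjusted p = 0.0400). Here, too, that embryo had the exposed value nearest the controls. Over all alternatives the Fabp7 log2 fold change lay between -1.01 and -0.76, with adjusted p between 0.000404 and 0.501. Fabp7 is also 1 of the 8 neural markers summed above.

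In the same list Dbi (1438093_x_at), which encodes the acyl-CoA binding protein, had a log2 fold change of 0.51 (limma adjusted p = 0.185), but its probe set 1455976_x_at had 0.00. Vldlr (1434465_x_at), the very low density lipoprotein receptor, had 1.16 (limma adjusted p = 0.296), with 151 and 398 in exposed embryos with NTD, 866, 253 and 312 in exposed embryos without NTD, and 180.1 and 124 in controls. The highest value was that of exposed embryo no NTD 1, which had the high yolk sac and liver transcripts.

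In glycerolipid synthesis the smallest unadjusted p values were those of Agpat1 (1421025_at, 0.45), an acyltransferase of phosphatidic acid synthesis, Lpin2 (1460290_at, -1.37), a phosphatidate phosphatase, and Dgat2 (1422677_at, 0.33), which makes triglyceride. Their limma adjusted p were 0.186, 0.281 and 0.293. On Lpin2 1460290_at the groups overlapped. The other tested Lpin2 probe sets, 1452836_at and 1452837_at, had -0.10 and 0.17 (limma adjusted p = 0.717 and 0.768). In fatty acid oxidation the dehydrogenase Acadl (1448987_at, -0.32), the hydratase Echs1 (1452341_at, -0.27) and the peroxisomal thiolase Acaa1a (1456737_x_at, 0.65) came first, with limma adjusted p of 0.278, 0.300 and 0.353. Among further synthesis genes these were Mlx (1418437_a_at, -0.43), a partner of the carbohydrate response factor ChREBP, and the elongation dehydratases Hacd2 (1449342_at, 0.34) and Hacd3 (1452427_s_at, -0.43), with limma adjusted p of 0.235, 0.242 and 0.271. The other tested Hacd3 probe sets, 1433706_a_at and 1454698_at, had -0.14 and -0.15 (limma adjusted p = 0.615 and 0.716). None of these values passed the criterion in either direction.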

How the data were processed

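Each embryo's RNA was hybridised to 1 one-colour array. The deposited values are linear signal intensities that the authors computed with MAS5 and scaled per array. The MAS5 version was not given in the sources used here. Their detection calls were left out. The 64 control probe sets entered no test. The array annotation assigned 20393 probe sets to 1 symbol, 691 to several and 1606 to none; 0 symbols changed when looked up by gene ID. A probe set whose signal reached the 40th percentile in at least 2 arrays was tested with limma 3.58.1 (R 4.3.3) on log2 of the signal, values below 1 set to 1, with a trend in the spread, and Benjamini-Hochberg adjustment over all 14554. The contrast of NTD against no NTD came from a model of all 3 groups. Exact permutation tests used the absolute difference of mean log2 signals, over 21 or 10 splits. Precision is limited by the number of arrays. The methods' tests were retraced as Welch's test and a regularized test after Cyber-T (window 101, confidence 10, settings assumed here), without the methods' false discovery step and detection calls.

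Named genes were all 10 members, 6 SREBP processing genes and, from each other lipid list, the called probe sets and up to 3 of smallest unadjusted p. The members and lists were chosen with earlier results of these data known. Alternatives were other normalization, floors, offsets, filters, weights, groupings, tests and left-out embryos. The limma step was tested on simulated data of the same design. Figures were drawn with Matplotlib 3.10.9.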

Additional observations from a re-analysis of the deposited data

Results flagged for a closer look

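Among the 20 probe sets, 1 had an exposed embryo far from the other 4. For Acly 1439459_x_at the value of 1912 in exposed embryo no NTD 3 was the lowest of the 5, and its gap to the next, on the log2 scale, was 0.856 of the whole range, above the limit of 0.71 for 5 samples. Chance alone marks about 1 in 20 groups in this way, and 20 were examined.

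Signals outside the main measurement stood out in exposed embryo NTD 1. The control probe sets for 18S ribosomal RNA read 6236, 7026 and 805 there for the 3′, 5′ and middle sets. The 2 controls had 165 and 214, 59.1 and 81.6, and 50.7 and 41.7 on the same sets. This embryo was also the exposed embryo with the highest Scd2 1415824_at signal. Whether the high 18S signal bears on the Scd2 value was not tested.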

How the results depend on the processing

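Calls on the whole array moved with the setting. Against 25 calls over all tested probe sets, an offset of 50 gave 50 calls, no filter 8, no trend 10, array weights 491, a fit of 3 groups 14, Welch's test 0 (2651 at an unadjusted p under 0.05) and Cyber-T 1256. Leaving out 1 embryo gave from 0 (without control 2) to 58 (without exposed embryo NTD 1). Among the probe sets of the 10 genes, against 0 calls, array weights called 2 (Scd2 1415824_at and Fads2 1449325_at) and Cyber-T 4 (those, Scd2 1415823_at and Scd1 1415964_at). Leaving out the 2 embryos with NTD, or both embryos that stood apart (chosen after the values were seen), called 1, Scd2 1415824_at, and leaving out 1 embryo gave 0 to 1, the 1 being the same probe set without exposed embryo NTD 1. In the wider lipid lists, against 0 calls, array weights and the set without both embryos that stood apart called 1, Fabp7, Cyber-T called 5, and leaving out 1 embryo gave 0 to 1. For NTD against no NTD, 0 of the 18 were called under every setting tried. The mean over the probe sets of each gene called 0 of the 10 genes.

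For single probe sets and pairs of probe sets, 483 alternative values kept their direction and side of the criterion (for pairs, moved by less than their spread), 9 became calls and 15 turned sign, all 15 for probe sets near 0 that were not called. Scd2 1415822_at had -0.010 with quantile normalization, -0.015 without the 2 embryos with NTD, and -0.016 to 0.082 with 1 embryo left out. Elovl6 1417403_at had -0.012 with array weights and -0.11 to 0.17 with 1 embryo left out. The same ranges were -0.13 to 0.022 for Scd1 1415965_at, -0.17 to 0.059 for Acly 1439459_x_at, -0.0085 to 0.18 for Acly 1451666_at and -0.12 to 0.029 for Fads2 1419031_at. The Scd2 shift between probe sets moved by less than its spread under every setting tried for it.

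The labels give the groups the same replicate numbers, but the numbers only name embryos, and exposed and control embryos came from different dams; same-numbered embryos did not deviate together (correlations between -0.25 and 0.026). With the number as a replicate block the array had 0 calls (2013 at an unadjusted p under 0.05), Scd1 1415965_at had 0.022, Acly 1439459_x_at 0.0089 and Elovl6 1417403_at -0.065, and 0 of the 18 were called.

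With 2 controls from 1 litter, the control spread rests on a pair of embryos, and no alternative removes that limit. Acaca and Scd1 1415965_at, the dimmest of the tested probe sets, fall below the filter at the 60th percentile and have no value there.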
